A study of Mus musculus with 10 samples.

Results

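Genes of pericellular proteolysis (9 of the 37991 gene identifiers in the table) were followed in cultured mouse keratinocytes: the matrix metalloproteases Mmp3, Mmp9, Mmp10, Mmp13 and Mmp14, the metalloprotease inhibitor Timp1, the plasminogen activators Plau and Plat, and the urokinase receptor Plaur. They were chosen by symbol, and each matched 1 row of the table. The cells were primary keratinocytes from skin of mice at postnatal days 4 to 5, with both copies of Bcl10 mutant (Bcl10-/-, called knockout) or 1 copy mutant (Bcl10+/-, called heterozygous), on the allele Bcl10tm1Mak. All controls thus carried a mutant copy, and no wild-type cells were analysed here. BCL10 is the adaptor that links CARD proteins to the protease MALT1 upstream of NF-kB. Cultures in serum-free medium with 0.05 mM calcium chloride, on collagen, were left unstimulated or given recombinant mouse IL-17A at 200 ng/mL for 5 h. There were 2 unstimulated and 2 IL-17A libraries labelled knockout, and 3 and 3 labelled heterozygous. A library pair that shares a genotype and a replicate number is called a culture. Whether a number stands for a separate mouse or a separate well is not stated in the labels, so p-values reflect only the spread of these libraries, part of which can be technical.

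Matrix metalloproteases are zinc enzymes that are made as inactive precursors and cleave collagens, laminins, other matrix proteins and one another. Tissue inhibitors of metalloproteases, such as the product of Timp1, block their active sites. Urokinase (Plau), held at the cell surface by its receptor (Plaur), and tissue-type plasminogen activator (Plat) turn plasminogen into plasmin, which digests fibrin and activates several metalloproteases. In skin both systems are best known from wound edges, where migrating keratinocytes express urokinase, its receptor, collagenases and stromelysins.

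Of the members, 3 lie in 1 gene cluster on chromosome 9. In GRCm38 (the assembly behind mm10) this cluster held 10 metalloprotease genes within 427.1 kb, from 7272514 to 7699585. Mmp13 (ENSMUSG00000050578; chr9:7272514-7283331, plus strand) encodes a collagenase, and Mmp3 (ENSMUSG00000043613; chr9:7445822-7455975, plus strand) and Mmp10 (ENSMUSG00000047562; chr9:7502352-7510240, plus strand) encode the stromelysins 1 and 2. Only these 3 and Mmp1b, a mouse relative of interstitial collagenase, averaged at least 1 FPKM (fragments per kb of gene, scaled to library depth) over the 10 libraries. The neutrophil collagenase Mmp8, the enamel protease Mmp20 and matrilysin Mmp7 were listed at 0 in all 10 libraries. Levels in the cluster therefore went from 0 to 83.0 FPKM, the latter for Mmp3 in a single culture described further on.

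**Figure D1:**
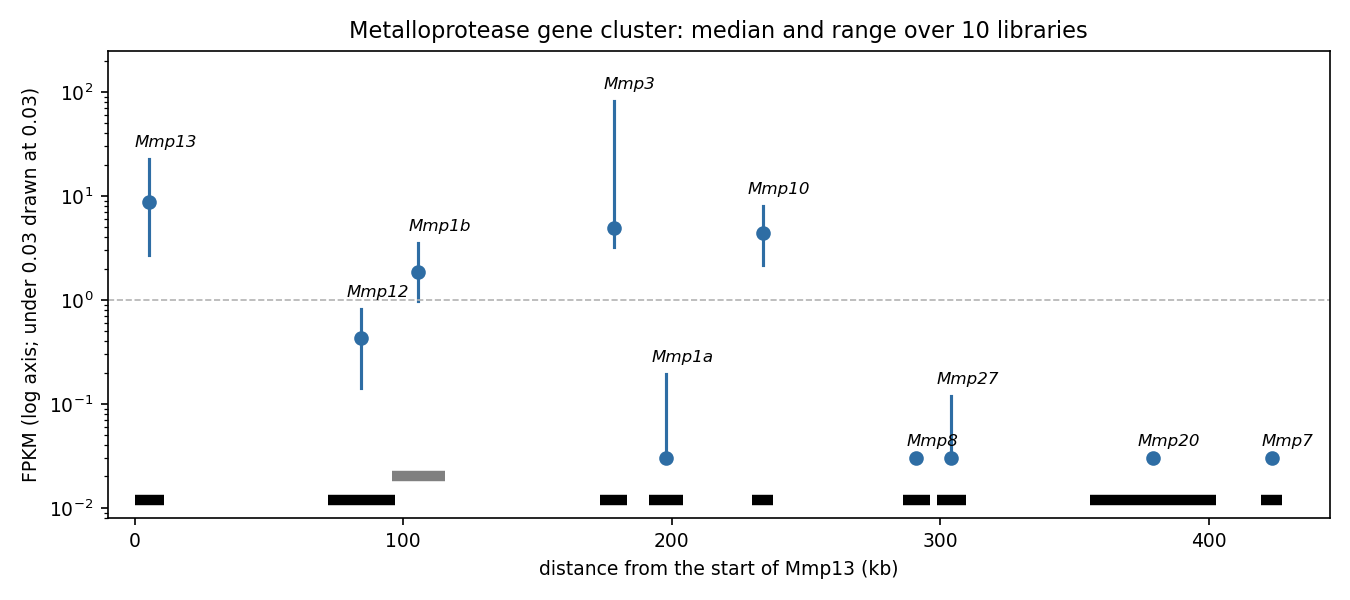
Level of each of the 10 metalloprotease genes of the chromosome 9 cluster (FPKM, log axis) against distance from the start of Mmp13 (kb). Points are medians and lines the range over 10 libraries, bars at the bottom are the genes (black, plus strand; grey, minus strand) and the dashed line is 1 FPKM. Mmp13, Mmp1b, Mmp3 and Mmp10 have medians above the line and the other 6 genes lie below it.

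The bases upstream of these 3 members are shown because the genes are neighbours and share a motif match yet differed in pattern across the cultures. Each line gives the 250 bases before the RefSeq start (GRCm38.p6, plus strand, 5′ to 3′), and capitals mark the match to the AP-1 motif TGANTCA. The windows are chr9:7272264-7272513 for Mmp13, chr9:7445572-7445821 for Mmp3 and chr9:7502092-7502341 for Mmp10.
Mmp13: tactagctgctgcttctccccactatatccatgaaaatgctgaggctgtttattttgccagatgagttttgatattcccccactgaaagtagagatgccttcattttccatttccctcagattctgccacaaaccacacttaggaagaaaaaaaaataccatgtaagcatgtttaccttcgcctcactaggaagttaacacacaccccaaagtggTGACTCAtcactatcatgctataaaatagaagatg
Mmp3: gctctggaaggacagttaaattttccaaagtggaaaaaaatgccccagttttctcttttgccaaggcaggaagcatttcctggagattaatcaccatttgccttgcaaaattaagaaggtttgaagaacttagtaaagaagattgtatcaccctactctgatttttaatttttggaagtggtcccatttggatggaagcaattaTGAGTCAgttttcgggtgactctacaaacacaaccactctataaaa
Mmp10: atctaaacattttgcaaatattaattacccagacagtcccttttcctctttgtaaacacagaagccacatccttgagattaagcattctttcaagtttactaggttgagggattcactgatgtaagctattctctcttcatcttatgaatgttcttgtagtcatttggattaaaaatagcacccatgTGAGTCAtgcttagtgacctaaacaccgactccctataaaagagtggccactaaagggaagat

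The AP-1 letters stood 35 to 29 bases before the start in Mmp13, 46 to 40 in Mmp3 and 63 to 57 in Mmp10. A match was also found 69 to 63 bases before the start of Plaur, and none in the windows of Mmp14 and Timp1. Both strands were searched, and 6.75% of 32851 promoter windows of the same length held the motif. Windows of Mmp9, Plau and Plat were not used here. The NF-kB motif of 3 G bases, 5 unspecified bases and 2 C bases was found in Timp1 and Plaur of these 6 windows, against 45.8% of all windows, with several of the matches overlapping each other. These matches are descriptions of letters and were not tested for function.

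The estimated depth was 15.9 to 50.8 M fragments per library. A count of 3 fragments then equals 0.0095 FPKM in Plat, the longest member, at the greatest depth and 0.212 FPKM in Timp1, the shortest, at the least depth, for counting error only. Bcl10 was 0.969 and 16.4 FPKM in knockout culture 1 (unstimulated, then IL-17A), 17.0 and 16.6 in knockout culture 2, and 59.5 to 72.3 in heterozygous cultures 2 and 3. Heterozygous culture 1 had 18.0 and 16.3 FPKM, near the 16.4 to 17.0 of the knockout libraries apart from the one at 0.969. This puts its label in doubt, so genotype results are given with and without it. The 2 libraries of knockout culture 1 differed from each other in Bcl10, which leaves their label or pairing in doubt too. The IL-17A changes given for knockout culture 1 rest on that pairing. The labels number the libraries 1 to 14 for both knockout cultures and heterozygous culture 1, and 33 to 38 for heterozygous cultures 2 and 3. Genotype and number set therefore cannot be told apart for those 2 cultures. Bcl10 itself was at most 18.0 FPKM in the libraries numbered 1 to 14 and at least 59.5 in those numbered 33 to 38. Its level thus cannot settle whether the label of heterozygous culture 1 is wrong. The 10 keratinocyte markers summed to 9827 to 13408 FPKM, with Krt5 at 4430 to 6426. The basal keratin gene Krt15 was listed at 0 in 7 of 10 libraries and reached at most 0.180 FPKM. Of 8 macrophage and neutrophil markers 6 were listed at 0 in every library, the leukocyte gene Ptprc and the macrophage gene Lyz2 among them, while Cd68, a lysosomal protein gene used as a macrophage marker, was 5.10 to 10.5 FPKM. The Langerhans cell gene Cd207 was listed at 0 in every library.

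Urokinase was the most abundant member and tissue-type plasminogen activator the least. On the FPKM scale, which is per length, Plau ranged from 98.8 to 128 over the 10 libraries, Plaur from 62.5 to 101 and Mmp14 from 41.4 to 49.1. Plau exceeded Plaur in every library, by 1.06-fold to 1.83-fold, although their ranges over the libraries overlapped between 98.8 and 101 FPKM. Next by median came Mmp13 at 8.74 FPKM, Mmp3 at 4.88, Mmp10 at 4.40 and then Timp1 and Mmp9, whose ranges all overlapped one another. Plat was at or under 1.12 FPKM. The 23 metalloprotease genes examined (5 members and 18 others) summed to 63.4 to 154 FPKM, and membrane-bound Mmp14 held 47.9% to 73.1% of that sum in 4 of the 5 cultures. In knockout culture 2 Mmp3 was the highest instead, with 53.8% of the sum in each of its libraries, and Mmp14 held 32.4% and 31.1%.

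**Figure D2:**
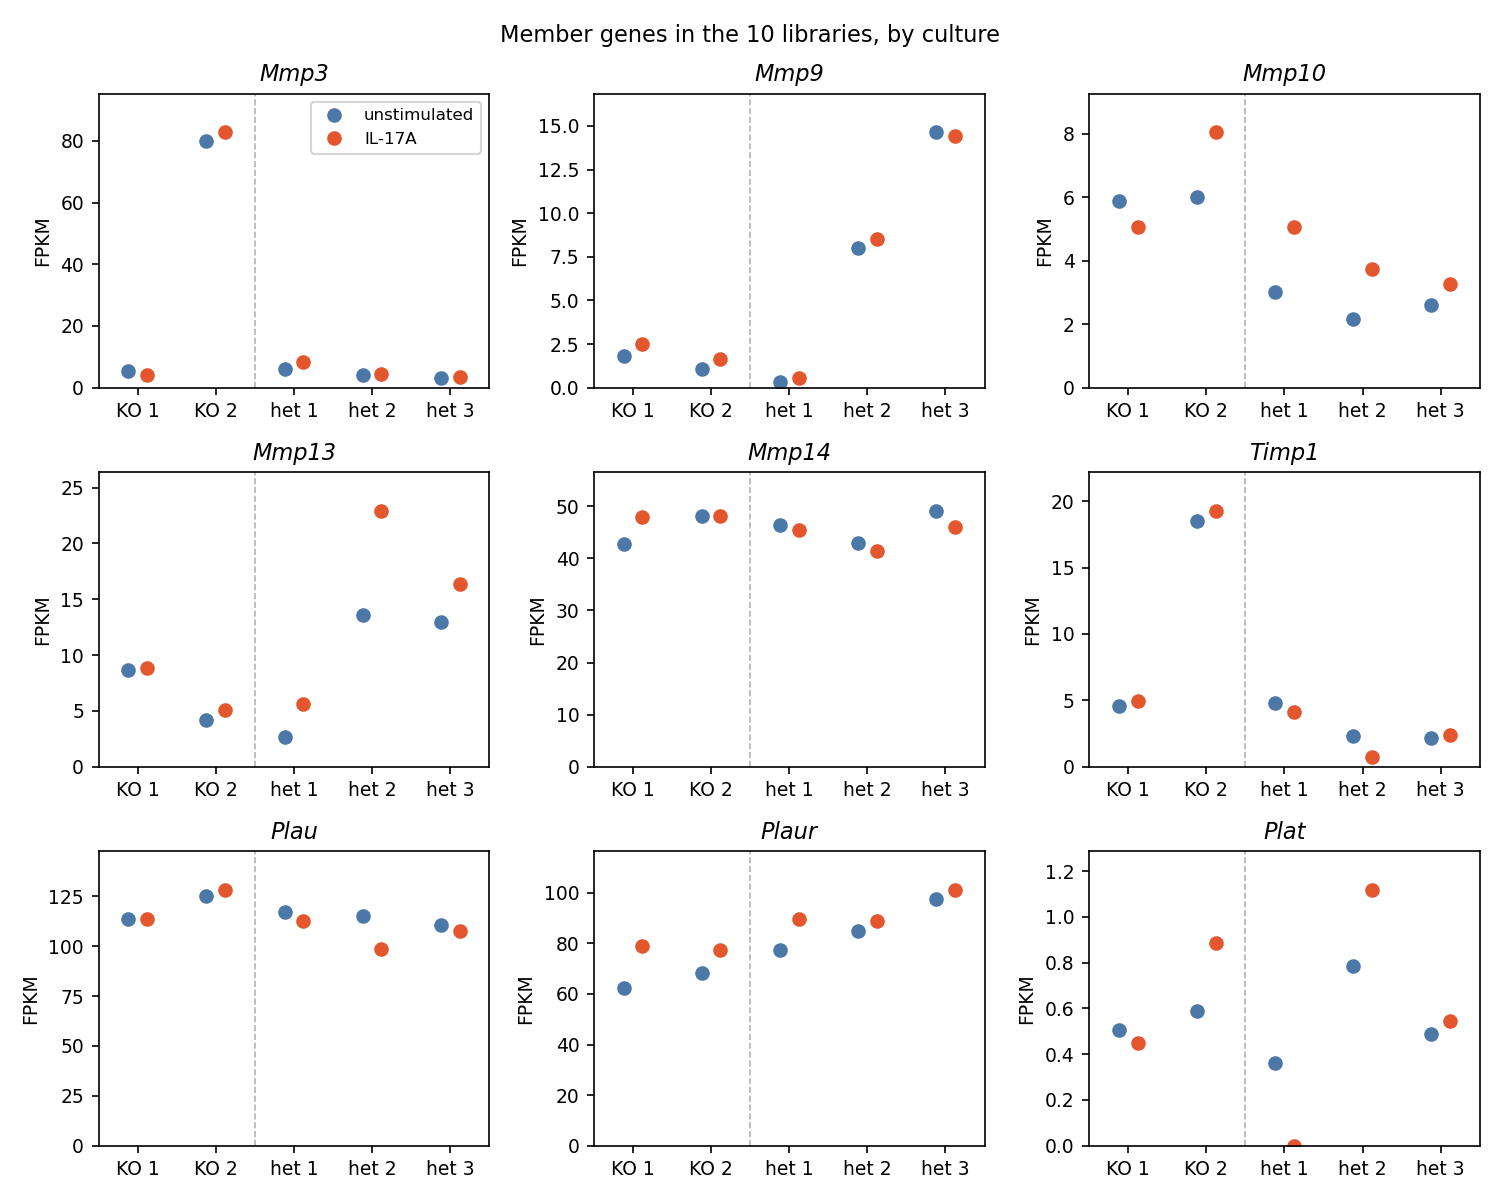
FPKM of the 9 members in the 10 libraries, 1 panel per gene, each vertical axis starting at 0. Points are single libraries by culture (KO, knockout; het, heterozygous), blue for unstimulated and orange for IL-17A. Mmp3 and Timp1 are high in knockout culture 2, Mmp9 and Mmp13 in heterozygous cultures 2 and 3, and Mmp14 is nearly level.

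Stromelysin 1 was high in 1 culture. Mmp3, whose product degrades proteoglycans, laminin and fibronectin and activates other metalloproteases, was 80.0 FPKM unstimulated and 83.0 with IL-17A in knockout culture 2. Knockout culture 1 had 5.37 and 4.20 FPKM. The heterozygous cultures had 6.03 and 8.40 FPKM in culture 1, 4.10 and 4.38 in culture 2, and 3.27 and 3.50 in culture 3. Both libraries of knockout culture 2 lay at least 9.52-fold above the highest other library, and knockout culture 1 lay within the heterozygous range. The knockout means of 42.7 ± 52.8 FPKM unstimulated and 43.6 ± 55.7 with IL-17A (SD, n = 2) thus have an SD larger than the mean.

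Timp1 was high in the same culture. Timp1 (ENSMUSG00000001131; chrX:20870166-20874735, plus strand, within Syn1 on the opposite strand, which did not exceed 0.0784 FPKM) was 18.5 FPKM unstimulated and 19.3 with IL-17A in knockout culture 2. It was 4.55 and 4.92 FPKM in knockout culture 1, 4.78 and 4.15 in heterozygous culture 1, 2.35 and 0.754 in heterozygous culture 2, and 2.13 and 2.35 in heterozygous culture 3. The gap between knockout culture 2 and the highest other library was 3.77-fold. Of the 8 members with a mean of at least 1 FPKM (Plat has 0.573 and was not tested), Mmp3, Timp1, Mmp10 and Plau had both libraries of knockout culture 2 above all others, against 4.6% of 12054 genes tested. Mmp3 and Timp1 were over 2-fold above, as were 0.199% of tested genes (24 genes). For Mmp10 and Plau the gap was 1.02-fold and 1.07-fold.

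Fibroblast markers moved with these values. Their sum over 10 genes was 58.4 and 58.9 FPKM in knockout culture 2 and 8.60 to 17.7 in the other 8 libraries, and 9 of the 10 markers had both libraries of knockout culture 2 above all others, the exception being Fbln1. The collagen gene Col1a1 was 10.8 and 10.6 FPKM there and at most 0.186 elsewhere, and the proteoglycan gene Dcn was 7.60 and 8.62 FPKM against at most 0.133. In the other 8 libraries Col1a1 and Dcn were each listed at 0 at least once. Among related genes, the gelatinase Mmp2 was 3.92 and 3.61 FPKM in knockout culture 2 and at most 0.495 in the rest. Mrc2, a collagen receptor that associates with the urokinase receptor, was 0.709 and 0.696 FPKM against at most 0.0661. The keratinocyte marker sum of that culture (12318 and 12423 FPKM) lay inside the range of the others (9827 to 13408 FPKM). The part of fibroblast RNA in the Mmp3 and Timp1 levels was not tested, and in these bulk libraries more cells of a type and more RNA per cell cannot be told apart.

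**Figure D3:**
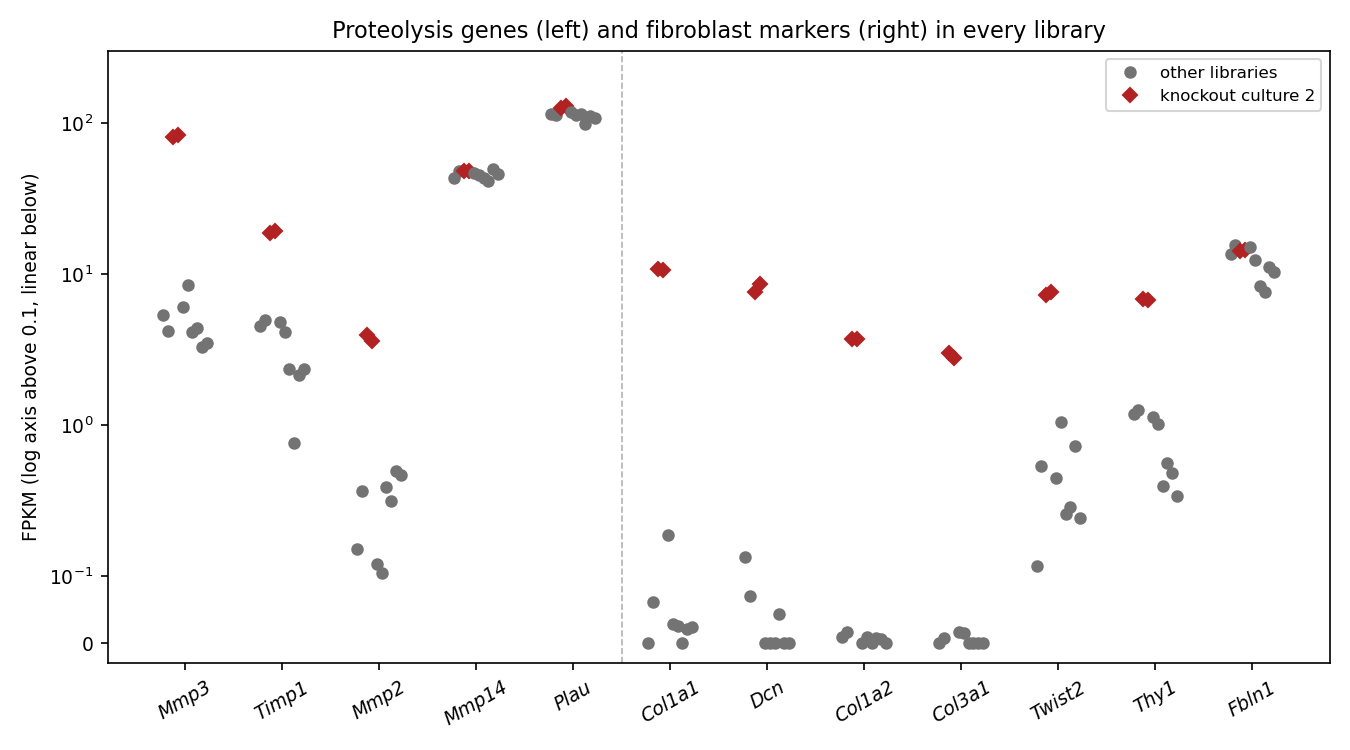
FPKM of 5 proteolysis genes (left of the dashed line) and 7 of the 10 fibroblast markers (right) in each library, on an axis that is logarithmic above 0.1 and linear below. Red diamonds are the 2 libraries of knockout culture 2 and grey circles the other 8. Mmp3, Timp1 and Mmp2 are separated from the other libraries as Col1a1, Dcn and other markers are, whereas Mmp14, Plau and Fbln1 are not or barely.

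Mmp10 had a narrower range and was higher in the unstimulated knockout libraries. It was 5.88 and 6.0 FPKM in unstimulated knockout cultures 1 and 2, and 3.02, 2.18 and 2.62 FPKM in unstimulated heterozygous cultures 1, 2 and 3. These groups did not overlap. With IL-17A the knockout libraries had 5.07 and 8.06 FPKM and the heterozygous ones 5.07, 3.73 and 3.28, so knockout culture 1 and heterozygous culture 1 met at the same level.

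Gelatinase B and collagenase 3 followed another division of the libraries. Mmp9 (ENSMUSG00000017737; chr2:164940780-164955850, plus strand), which encodes gelatinase B, was 8.01 and 8.50 FPKM in heterozygous culture 2 (unstimulated, then IL-17A) and 14.7 and 14.4 in culture 3. It was 0.310 and 0.533 FPKM in heterozygous culture 1, 1.81 and 2.52 in knockout culture 1, and 1.05 and 1.64 in knockout culture 2. All 4 libraries numbered 33 to 38 were above all 6 numbered 1 to 14. The lowest values belonged to heterozygous culture 1, the culture whose Bcl10 level was near that of most knockout libraries. Mmp13 was 13.6 and 22.9 FPKM in heterozygous culture 2 and 13.0 and 16.4 in culture 3, and 2.69 and 5.61 in heterozygous culture 1. The knockout cultures had 8.65 and 8.83 FPKM (culture 1) and 4.15 and 5.12 (culture 2), again below every library numbered 33 to 38.

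Such a division was common in the table. Of the 8 tested members, Mmp9 and Mmp13 were higher in all libraries numbered 33 to 38, as were 18.4% of tested genes. Timp1 was lower in all of them (0.754 to 2.35 FPKM against 4.15 to 19.3), as were 17.4%. With these backgrounds the counts of 2 and 1 among 8 are no result about the members as a set. Among related genes, the urokinase inhibitor Serpinb2 was 832 to 1134 FPKM in the libraries numbered 33 to 38 and 498 to 615 in those numbered 1 to 14. The tumour necrosis factor gene Tnf, named after its values were seen, was 20.4 to 29.7 FPKM against 3.94 to 7.35. Of 14 tested inducers of metalloproteases, Tnf among them, 2 were higher and 4 lower in all libraries numbered 33 to 38. The melanocyte marker sum also moved with the division (320 to 411 FPKM in the libraries numbered 33 to 38 against 171 to 201). Other marker sums were lower in those libraries without overlap. The keratinocyte sum was 9827 to 11268 FPKM against 12069 to 13408 and the suprabasal keratinocyte sum 97.5 to 127 against 144 to 221. The fibroblast sum was 8.60 to 12.4 against 14.9 to 58.9 and the macrophage and neutrophil sum 5.10 to 6.73 against 7.79 to 10.5. Outside knockout culture 2 the fibroblast sum was mostly Fbln1, such as 7.54 of 8.60 FPKM in heterozygous culture 2 with IL-17A. The macrophage and neutrophil sum was nearly all Cd68, since Csf1r reached at most 0.0243 FPKM and the other 6 markers were listed at 0. Apart from knockout culture 2, both sums thus rest mainly on 1 gene each and do not show a division in those cell types. The part of these markers, of Tnf, of Bcl10 and of library number in the Mmp9, Mmp13 and Timp1 levels was not tested.

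Membrane-bound Mmp14 and urokinase varied little. Mmp14 (ENSMUSG00000000957; chr14:54431612-54445364, plus strand) encodes the membrane-anchored protease that activates the MMP2 precursor. Unstimulated it was 42.8 and 48.1 FPKM in the knockout cultures and 46.4, 43.0 and 49.1 in the heterozygous ones, and with IL-17A 47.9 and 48.0 against 45.4, 41.4 and 46.0. Its range over the 10 libraries was 0.24 on the log2(FPKM + 1) scale. The unstimulated groups overlapped, and with IL-17A both knockout libraries were above the 3 heterozygous ones. Plau (ENSMUSG00000021822; chr14:20836660-20843385, plus strand) was 114 and 125 FPKM in unstimulated knockout cultures 1 and 2 and 117, 115 and 111 in the heterozygous ones. With IL-17A the values were 113.4 and 128 FPKM against 112.8, 98.8 and 107, which did not overlap. With Timp1, 3 of 8 members were higher in both knockout libraries than in any heterozygous library with IL-17A, as were 14.8% of tested genes, and unstimulated 1 was (Mmp10), as were 12.3%. The log2 range of Plau was 0.37, and that of Mmp3 was 4.30, of Mmp9 3.58 and of Timp1 3.53.

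The urokinase receptor was lower in the unstimulated knockout libraries. Plaur (ENSMUSG00000046223; chr7:24462484-24475968, plus strand) was 62.5 and 68.4 FPKM in unstimulated knockout cultures 1 and 2, and 77.3, 84.9 and 97.8 in heterozygous cultures 1, 2 and 3. With IL-17A it was 78.9 and 77.3 FPKM against 89.8, 88.9 and 101. The genotypes did not overlap in either condition, as was so for 15.4% of tested genes (lower in knockout) unstimulated and 13.8% with IL-17A, and heterozygous culture 1 was nearest to the knockout level when unstimulated.

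Tissue-type plasminogen activator was the lowest member. Plat (ENSMUSG00000031538; chr8:22757727-22782844, plus strand) was 0.507 and 0.590 FPKM in unstimulated knockout cultures 1 and 2 and 0.448 and 0.886 with IL-17A. The heterozygous cultures had 0.360, 0.785 and 0.490 FPKM unstimulated and 1.12 and 0.545 with IL-17A in cultures 2 and 3. In heterozygous culture 1 the IL-17A library lists Plat at 0. Estimates in this table can be too low, since the housekeeping gene Gapdh stood at only 0.278 to 4.58 FPKM. A listed 0, here or for other genes, is therefore not proof of absence. No group stood clear of another.

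IL-17A was compared with no stimulation to ask which members respond to the cytokine. Collagenase 3 was higher with IL-17A in all 5 cultures. The change of Mmp13 on the log2(FPKM + 1) scale was 0.84, 0.71 and 0.31 in heterozygous cultures 1, 2 and 3 and 0.03 and 0.25 in knockout cultures 1 and 2. Plaur was also higher in 5 of 5, by 0.33 and 0.17 in the knockout cultures and by 0.21, 0.07 and 0.05 in the heterozygous ones. Mmp10 was higher in 4 of 5, by 0.60, 0.57 and 0.24 in the heterozygous cultures and 0.37 in knockout culture 2, with -0.18 in knockout culture 1. Mmp9 was higher in 4 of 5, with at most 0.36. Mmp14 was lower in 4 of 5, down to -0.09, and 0.16 higher in knockout culture 1. Plau was lower in 4 of 5, with -0.22 in heterozygous culture 2 the farthest from 0. Timp1 was lower in 2 of 5, with -0.93 in heterozygous culture 2.

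**Figure D4:**
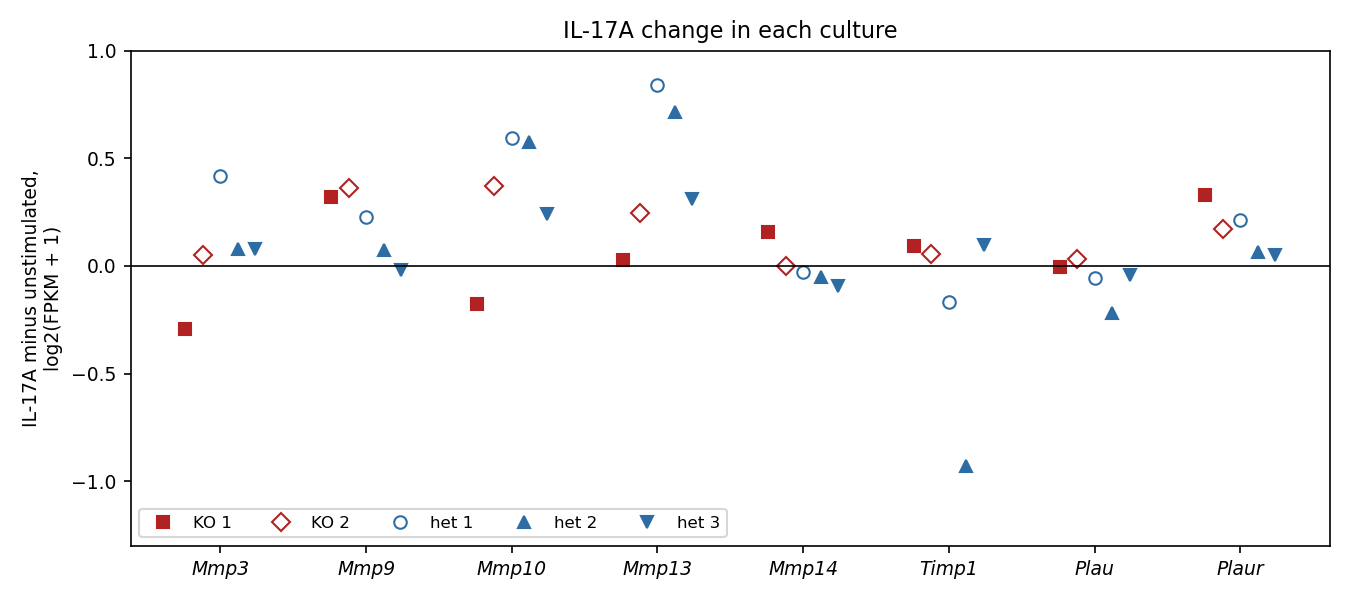
Change with IL-17A in each culture for the 8 tested members, as the difference in log2(FPKM + 1) between the paired libraries. Red symbols are knockout cultures, blue symbols heterozygous ones and the line marks no change. Mmp13 and Plaur lie above the line in all 5 cultures and Mmp10 in 4.

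None of these changes passed the test. Levels on the log2(FPKM + 1) scale were fitted with limma over all 12054 genes that averaged 1 FPKM or more, and a change was called at a Benjamini-Hochberg adjusted p under 0.05. In the heterozygous cultures 0 of 8 members were called by limma (1 at an unadjusted p under 0.05, Mmp10), beside 0.0083% of all genes (1.34% at an unadjusted p under 0.05). The fitted changes there were 0.62 (SE 0.62) for Mmp13, 0.47 (SE 0.18) for Mmp10 and 0.11 (SE 0.11) for Plaur, each with an adjusted p of 1. In the knockout cultures 0 of 8 were called by limma (0 at an unadjusted p under 0.05), beside 0.0249% of genes, with 0.25 (SE 0.13) for Plaur, 0.34 (SE 1.24) for Mmp9, 0.14 (SE 0.76) for Mmp13 and 0.10 (SE 0.22) for Mmp10. These also had an adjusted p of 1. The Mmp13 change turned to -0.029 in heterozygous cultures without the unstimulated library of culture 1, and to -0.20 and -0.31 in knockout without the IL-17A library of culture 1 or the unstimulated library of culture 2. Each of these fits leaves a library without its partner, so the level of its culture enters the change. Within cultures Mmp13 was higher with IL-17A in 5 of 5. The Mmp10 change in knockout was -0.18 without culture 2. The median change of the 8 members was 0.10 in the heterozygous and 0.09 in the knockout cultures, and that of all tested genes was -0.01 and -0.0005. The heterozygous median was -0.04 without the unstimulated library of culture 1 and -0.02 without the IL-17A library of culture 3. The knockout median was 0.0019 without the IL-17A library of culture 2. In these fits too a library is left unpaired. With both libraries of a culture left out, the median was 0.04 in heterozygous (without culture 1). It was 0.11 and 0.06 in knockout (without culture 1 or 2). No direction is given for the members together.

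The IL-17A change averaged over the 5 cultures was 0.43 (SE 0.48) for Mmp13, 0.32 (SE 0.14) for Mmp10, 0.17 (SE 0.08) for Plaur and 0.19 (SE 0.78) for Mmp9. It was 0.07 (SE 0.85) for Mmp3, -0.17 (SE 0.48) for Timp1, -0.06 (SE 0.07) for Plau and -0.0035 (SE 0.07) for Mmp14. Again 0 of 8 members were called by limma (1 at an unadjusted p under 0.05, Mmp10; each adjusted p was 1.00), beside 0.0415% of genes (1.43% at an unadjusted p under 0.05). With culture as a block, which removes the level of each culture from the spread, the error of Mmp13 fell to 0.12, but 0 of 8 were still called by limma (4 at an unadjusted p under 0.05), beside 0.149% of genes (18, against 5 without the block) and 6.03% at an unadjusted p under 0.05. The adjusted p with the block was 0.632 for Mmp13, 0.660 for Plaur and 0.781 for Mmp10. Within each genotype the block also gave 0 of 8 members called by limma, with 2 at an unadjusted p under 0.05 in each. Of the 12054 genes, 835 had such a p in the heterozygous and 607 in the knockout cultures. The direction of Mmp3, Mmp9, Timp1 and Mmp14 turned when single libraries were left out. Those fits leave a library without its partner, so the level of a culture enters the change. Within cultures Mmp3 and Mmp9 were higher with IL-17A in 4 of 5, Timp1 in 3 and Mmp14 in 1. No direction of the fitted change is given for these 4 members.

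The response in knockout was compared with that in heterozygous cultures to ask whether BCL10 alters the response to IL-17A. The knockout change minus the heterozygous change was -0.49 (SE 0.98) for Mmp13 and -0.37 (SE 0.29) for Mmp10, with an adjusted p of 1.00 for each. Of the 8 members 0 were called by limma (0 at an unadjusted p under 0.05), beside 0% of all genes. With culture as a block 1 had an unadjusted p under 0.05, beside 5.18% of genes. The Mmp13 difference was 0.17 without the unstimulated library of heterozygous culture 1. That fit leaves the IL-17A library of this culture without its partner, so the level of the culture enters the value. Within cultures the Mmp13 change was 0.84, 0.71 and 0.31 in heterozygous and 0.03 and 0.25 in knockout. Serpinb2 was higher with IL-17A in 3 of 3 heterozygous cultures (0.24, 0.32 and 0.15) and lower in both knockout cultures (-0.21 and -0.0072), and this difference was not called either.

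The members' levels were set against genotype to ask what loss of BCL10 changes. On means of the 2 libraries of each culture (2 knockout against 3 heterozygous), Mmp10 was 0.76 higher in knockout (SE 0.16, adjusted p = 0.606 by limma) and Plaur was 0.32 lower (log2 -0.32, SE 0.12). Timp1 was 1.61 higher (SE 0.57), Mmp3 1.93 higher (SE 1.03), Mmp9 was at -1.12 (SE 0.96), Mmp13 at -0.61 (SE 0.59), Plau at 0.12 (SE 0.11) and Mmp14 at 0.05 (SE 0.11). Of 8 members 0 were called by limma (3 at an unadjusted p under 0.05: Mmp10, Timp1 and Plaur), beside 0% of all genes (4.82% at an unadjusted p under 0.05). The Mmp3 difference rested on knockout culture 2, without which it was 0.01 (SE 0.36), and the Timp1 difference fell to 0.71 (SE 0.45). The Mmp10 difference was 0.61 (SE 0.21) and the Plaur difference -0.35 (SE 0.19) without that culture. The median difference of the 8 members was 0.08 and that of all tested genes -0.02.

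**Figure D5:**
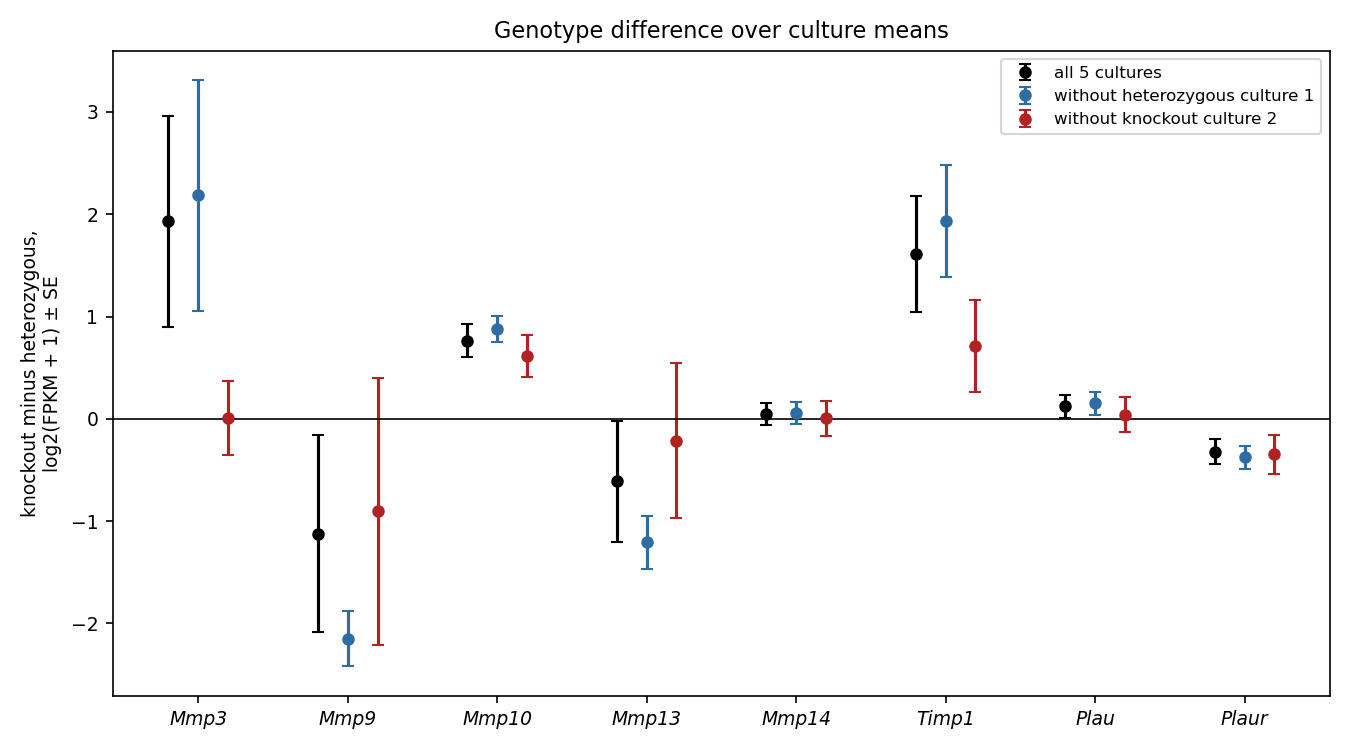
Knockout minus heterozygous level of the 8 tested members over culture means, in log2(FPKM + 1), with SE from limma. Black points use all 5 cultures, blue points leave out heterozygous culture 1 and red points leave out knockout culture 2. Mmp10 lies above 0 and Plaur below it in all 3 fits, Mmp3 is near 0 without knockout culture 2, and Mmp9 is lowest without heterozygous culture 1.

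The genotypes were also compared within each condition. That fit counted the 2 libraries of a culture as independent, which they are not for genotype, so its p-values can be too small. Unstimulated, Mmp10 was 5.94 ± 0.0889 FPKM in knockout (SD, n = 2) and 2.61 ± 0.422 in heterozygous libraries (n = 3), a log2 difference of 0.95 (SE 0.20, adjusted p = 0.728 by limma). Plaur was 65.5 ± 4.17 FPKM against 86.6 ± 10.3 (log2 -0.39, SE 0.12, adjusted p = 0.728). Mmp9 was 1.43 ± 0.539 FPKM against 7.66 ± 7.18 (log2 -1.25, SE 1.13, adjusted p = 0.732), and the heterozygous SD is nearly as large as the mean. With IL-17A the log2 difference was 0.58 (SE 0.20) for Mmp10, -0.25 (SE 0.12) for Plaur and -0.997 (SE 1.13) for Mmp9, with adjusted p = 0.507, 0.507 and 0.645. Of 8 members 0 were called by limma in either condition (2 at an unadjusted p under 0.05 in each), beside 0% of genes unstimulated and 0.0249% with IL-17A. At an unadjusted p under 0.05 the shares of all genes were 4.66% and 8.14%.

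Without heterozygous culture 1 some members passed. Mmp9 was then called lower in knockout, unstimulated (log2 -2.31, adjusted p = 0.0400 by limma), with IL-17A (-1.99, adjusted p = 0.0321) and over culture means (-2.15, SE 0.27, adjusted p = 0.0380). It was the 1 of 8 members called in each condition, beside 1.05% of all genes unstimulated and 6.7% with IL-17A. Calls within a condition come from a fit that counts the 2 libraries of a culture as independent, so they are not separate evidence. The fit over culture means takes 1 value per culture. Mmp10 was called higher over culture means (0.88, SE 0.13, adjusted p = 0.0465), so that 2 of 8 members passed there, beside 1.73% of genes. Mmp13 had -1.21 (SE 0.26, adjusted p = 0.0708) and did not pass. In this fit all heterozygous libraries are numbered 33 to 38 and all knockout libraries 1 to 10, so genotype cannot be told apart from library number. Among libraries numbered 1 to 14 alone, where heterozygous culture 1 is the only heterozygous culture, Mmp9 was 0.93 higher in knockout (SE 0.23, adjusted p = 1.00) and Mmp13 0.58 higher (SE 0.37), opposite to the direction over all cultures. Mmp10 was 0.54 higher (SE 0.16) and Plaur was at -0.22 (SE 0.08) there, neither of them called.

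The other genes of these systems gave 0 calls in any of the 7 comparisons by limma. Of 18 further metalloproteases only Mmp1b was tested. It was lower in knockout over culture means (log2 -0.59) and 0.971 to 3.56 FPKM over the libraries. Timp2 and Timp3, the 2 tested of 5 further inhibitors of metalloproteases, were at 0.51 and 0.43. Timp3 was lower with IL-17A in 5 of 5 cultures (averaged log2 -0.26). Among 8 tested of 14 genes that inhibit, bind or feed the plasminogen activators (3 at an unadjusted p under 0.05), the protease nexin Serpine2 had 0.74 and the receptor Vldlr, which clears protease-inhibitor complexes, -0.48. Plasminogen itself (Plg) was listed at 0 in every library. Each of these genotype values had an adjusted p of 0.606, and the Serpine2, Timp2, Timp3, Mmp1b and Vldlr values also followed the division by library number without overlap.

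Substrates and upstream genes showed the same limits. All 16 basement membrane and matrix genes were higher in knockout over culture means (median log2 0.64, all tested genes -0.02), with fibronectin (Fn1) at 1.10, collagen VII (Col7a1) at 1.26 and tenascin C (Tnc) at 1.00, and 0 of them were called by limma (4 at an unadjusted p under 0.05). Of these 16 genes 13 were lower in all libraries numbered 33 to 38, and Spp1 and Sparc were over 2-fold higher in knockout culture 2 than in any other library. Of 16 AP-1, ETS and RUNX factor genes 11 were higher, with a median of 0.08, while Junb had -0.36, Ets1 -0.51 and Atf3 -0.55 (0 called by limma, 1 at an unadjusted p under 0.05). Of 14 growth factors, cytokines and receptors known to induce metalloproteases 7 were higher, with Il1a at -0.67, Tnf at -1.55 and the interleukin-1 receptor gene Il1r1 at -0.27 (0 called by limma, 2 at an unadjusted p under 0.05). Among 8 ADAM and ADAMTS proteases the values were 0.46 for Adam12, -0.35 for Adam8 and 0.23 for Adam17, and among 15 epidermal serine proteases and inhibitors 0.73 for Tmprss4, -0.29 for Prss22 and -0.33 for Klk7. These lists had 0 calls by limma, with 1 and 2 genes at an unadjusted p under 0.05.

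With IL-17A averaged over the cultures, the same lists had medians between -0.20 and 0.09, and 0 genes were called by limma (0 at an unadjusted p under 0.05). Among the genes with the smallest p in this fit, the change was 0.36 for Il1a and -0.27 for the hepatocyte growth factor receptor Met among inducers, and 0.25 for the matriptase inhibitor Spint1, -0.27 for the kallikrein Klk5 and 0.16 for Prss8 among epidermal proteases and inhibitors. Junb (0.15) and Elf3 (0.15) were higher in 5 of 5 cultures and Etv4 (-0.16) in 1 of 5. Adam8 (0.15) was higher in 5 of 5, Adam10 (-0.12) in 2 and Adam15 (-0.15) in 1. The laminin-332 chains Lama3 (-0.14) and Lamb3 (-0.13) were higher in 0 and 1 of 5 cultures and Ecm1 (0.13) in 4. Serpinb2 had 0.10 and Vldlr 0.13. With culture as a block 0 of the 80 list genes tested were called by limma (15 at an unadjusted p under 0.05, beside 6.03% of all genes). The lowest adjusted p there was that of Slpi, a secreted inhibitor of serine proteases, which was higher in 5 of 5 cultures by 0.28 to 0.45 (averaged log2 0.33, SE 0.04, adjusted p = 0.0554).

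The genes most like the 3 members of widest range were found by Pearson correlation of log2(FPKM + 1) over the 10 libraries, given as a description since these libraries come in culture pairs. For Mmp3 they were the retinoid-binding protein gene Crabp1 (r = 0.994), the BMP antagonist Grem1 (0.993) and osteopontin, Spp1 (0.992). Crabp1 was 91.8 and 98.3 FPKM in knockout culture 2 and at most 7.09 elsewhere, and Spp1 was 67.8 and 66.2 FPKM against at most 3.69. For Timp1 they were Timp2 (0.989), the growth factor receptor Fgfr1 (0.974) and Ccn4 (0.972), and for Mmp9 Tor3a (0.991), the interferon gamma receptor subunit Ifngr2 (0.981) and the carboxypeptidase inhibitor Lxn (0.978). Between members, the largest correlations over the same 10 libraries were those of Timp1 with Plau (0.932) and with Mmp3 (0.907), and of Mmp9 with Mmp13 (0.894).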

How the data were processed

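Poly(A)-selected RNA (100 ng per library) from 10 libraries was quantified by the authors as FPKM, deposited as 1 table. HISAT2, SAMtools, StringTie, DESeq2 and build mm10 are named in the submitters' processing notes. Their versions, the strand setting and the annotation release were not given in the sources used here. Count models do not suit FPKM and were not used. Groups came from the labels. Depth was estimated from the steps of low FPKM values in single-exon genes (48.6% to 55.3% of such values fell within 0.05 of whole fragments). Of 37991 identifiers 32919 matched a GRCm38 symbol. Genes that averaged 1 FPKM or more (12054) were fitted on log2(FPKM + 1) with limma 3.58.1 (R 4.3.3), with a mean-variance trend and 4 group means, or on culture means, two-sided, with Benjamini-Hochberg adjustment. The script was tested on simulated data. A log2 change on this scale understates changes of low genes. Libraries were paired within a genotype by number. Deviations from the group means correlated within these pairs at 0.227 (knockout, 1 value for both cultures) and 0.607, 0.488 and 0.137 (heterozygous). Across genotypes they correlated at -0.155 to 0.0476. Pairs of unlike number within a genotype are not given beside these, so the low values do not establish the pairing. Members and gene lists were chosen with earlier results of these data known. Named are all members, list genes called in any comparison and the 3 of each list with the smallest p in the averaged IL-17A or culture-mean comparison. Other genes (Bcl10 and marker genes aside: Tnf and Serpinb2 with the library numbers, Slpi, Mmp2, Mrc2, Plg and genes listed at 0) were named after their values were seen. Promoter windows are RefSeq sequences of GRCm38.p6, found for 6 of 9 members. A list gene that the rule names is not reported here.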

Additional observations from a re-analysis of the deposited data

How the results depend on the processing

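Of 562 recomputed log2 changes of members, 531 kept both direction and side of the threshold, 27 turned direction and 4 passed the threshold, the latter all without heterozygous culture 1. The count of members called stayed 0 in every setting except that one (1 in each condition; 0 to 2 over culture means when 1 culture was left out). A fit that leaves 1 library or culture in a group assumes it to vary like the others.

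The replicate block (culture as a fixed effect) kept 0 members called in the 4 IL-17A comparisons. Over all genes it gave 0 calls in the heterozygous (1 without the block) and knockout cultures (3 without it), 0 for the difference in response, and 18 averaged (5 without it). Not paired across genotypes, the genotype comparisons have no such fit.

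Counts over all genes moved more. For IL-17A in heterozygous cultures they were 2 with a pseudocount of 0.1 or TPM scaling, 0 with only the groups compared and without heterozygous culture 1, knockout culture 1 or 2, and 0 to 3 when single libraries were left out. In knockout they were 5 without a filter, 1 with TPM scaling, 5 without knockout culture 2, and 0 to 10 without single libraries. For the difference in response (0 in the reported fit) they were 1 without a filter or heterozygous culture 1, 4 and 5 without knockout culture 1 and 2, and 0 to 6 without single libraries. The averaged count was 2 with a mean of at least 5 FPKM, 0 without knockout culture 1, and 1 to 7 without single libraries. Between genotypes, unstimulated (0 reported) and with IL-17A (3 reported), they were 2 and 6 without a filter, 1 and 1 with only the groups compared, 126 and 808 without heterozygous culture 1, 12 and 16 without knockout culture 1, 3 and 6 without knockout culture 2, and 8 and 8 with library numbers 1 to 14 only. TPM scaling gave 0 with IL-17A, and single libraries 0 to 3 and 0 to 10. Over culture means, leaving out 1 culture gave 0 to 209.

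The directions that turned were these. In the averaged IL-17A change, Mmp14 became 0.0058 with median-of-ratios scaling, 0.014 with TPM scaling and 0.0031 without heterozygous culture 1, and Mmp3 -0.021 in the last. Without single libraries the averaged log2 change was -0.74 to 0.87 for Mmp3, -0.44 to 0.79 for Mmp9, -0.036 to 0.029 for Mmp14 and -0.53 to 0.19 for Timp1. Likewise Mmp13 was -0.029 to 1.17 in heterozygous and -0.31 to 0.59 in knockout cultures, with a difference of -1.03 to 0.17, and Mmp10 was -0.19 to 0.39 in knockout (-0.18 without knockout culture 2). With library numbers 1 to 14 only, Mmp9 was 0.87 unstimulated, 0.99 with IL-17A and 0.93 over culture means, and Mmp13 0.58. Over culture means Mmp14 was -0.0020 to 0.089 when 1 culture was left out. Where a single library was left out, its partner stayed in the fit unpaired, so the level of a culture enters the change. The cause of these turns was not tested. Leaving out knockout culture 2 and library numbers 1 to 14 were settings chosen after seeing the data.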
